A study of Mus musculus with 12 samples.

Results

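The genes described here are 7 mouse genes of oxysterol and bile acid metabolism: the enzymes Cyp27a1, Ch25h, Cyp7b1, Hsd3b7 and Cyp8b1 and the receptors Gpr183 and Gpbar1. They were taken by symbol from the deposited tables, which list 55401 genes, and the 7 symbols each matched 1 gene. The set was chosen by function with measured values of these libraries already known, among them the difference of Cyp8b1 between liver and duodenum. Their differences between tissues are therefore given as a description, with no test. All 7 passed the filter on low counts that left 44624 genes for testing.

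The study compared migratory dendritic cells (DCs), which carry antigen from a tissue to its draining lymph node, between liver, duodenum and pancreas. The mice were of strain B6 and 6 to 8 weeks of age, and the labels name no treatment, genotype or sex. The sort took live CD45+ LIN- cells that were CD11c+, high for MHC class II, CD103+ and CD11b-, a phenotype of conventional type 1 DCs (cDC1). Each of the 3 tissues gave 4 libraries, each a pool of 2 mice, so a value stands for a pool and not for 1 animal.

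Bile acids are made from cholesterol in the liver, by a route that starts on the sterol ring with Cyp7a1 or by an alternative route that starts on the side chain with Cyp27a1. Oxysterols, the hydroxylated forms of cholesterol, are intermediates of these routes and are also signals: an oxysterol made by Ch25h and Cyp7b1 in turn is the ligand of Gpr183 (also called EBI2), a receptor that positions B cells, T cells and DCs in lymphoid tissue. Hsd3b7 acts in bile acid synthesis and also breaks that ligand down.

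The 12 libraries held 220.9 to 356.1 M estimated counts. Taken as numbers of reads, these counts agreed within sampling noise for no pair within a tissue (chi-square per degree of freedom from 76.5 to 417 over 18 pairs). Summed over 10 cDC1 markers, levels were 1647 to 1833 TPM in liver, 1329 to 1755 in duodenum and 1407 to 1582 in pancreas, where TPM is a unit of transcript abundance scaled for transcript length. The 9 markers of conventional type 2 DCs summed to 4.63 to 10.2 TPM in liver, 37.0 to 53.7 in duodenum and 13.7 to 25.2 in pancreas. The 10 B and plasma cell markers summed to 3954 to 6323 TPM in duodenum, against 60.6 to 113.5 in liver and 66.4 to 168.0 in pancreas, and the 14 pancreatic acinar markers to 1473 to 8119 TPM in pancreas, against at most 21.8 elsewhere. In bulk RNA of this kind, fewer cells of a type and less RNA per cell cannot be told apart. Earlier results of these data set apart duodenum replicate 2 with pancreas replicate 1, and, for immunoglobulin reads, liver replicate 2 with pancreas replicates 3 and 4. Results without each of these sets are given below. Immunoglobulin reads were not confined to the second set: Igha was at 3207 to 5155 TPM in duodenum and at most 3.57 in pancreas.

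Of the 7 genes, Cyp27a1, Hsd3b7 and Cyp8b1 were higher in liver than in duodenum with no overlap between libraries. The stretches before their start sites are shown for that reason, though the 3 differed in the other comparisons. RefSeq's promoter table (build GRCm38.p6) held entries for 6 of the 7 genes, without Cyp7b1. Printed are the 250 bases before the annotated start, 5′ to 3′ on the strand of the gene, for Cyp27a1 (chr1:74713285-74713534, plus strand), Hsd3b7 (chr7:127800359-127800608, plus strand) and Cyp8b1 (chr9:121916306-121916555, minus strand), with matches to 5 searched motifs in capitals.
Cyp27a1: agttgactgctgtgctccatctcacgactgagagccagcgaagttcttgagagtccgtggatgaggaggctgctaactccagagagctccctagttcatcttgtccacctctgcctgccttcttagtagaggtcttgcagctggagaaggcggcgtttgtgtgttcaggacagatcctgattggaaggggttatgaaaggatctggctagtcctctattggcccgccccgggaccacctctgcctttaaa
Hsd3b7: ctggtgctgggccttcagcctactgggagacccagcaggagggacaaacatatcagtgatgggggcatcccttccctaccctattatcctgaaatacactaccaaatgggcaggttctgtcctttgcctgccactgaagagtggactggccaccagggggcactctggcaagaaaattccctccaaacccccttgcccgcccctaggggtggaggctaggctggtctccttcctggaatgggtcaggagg
Cyp8b1: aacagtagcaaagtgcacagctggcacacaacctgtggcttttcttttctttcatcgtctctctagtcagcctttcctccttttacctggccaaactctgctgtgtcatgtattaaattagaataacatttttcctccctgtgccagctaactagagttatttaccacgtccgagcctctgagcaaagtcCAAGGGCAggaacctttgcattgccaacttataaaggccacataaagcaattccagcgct
The motifs searched, on both strands, were AGGTCA (a nuclear receptor half-site, in 14.0% of the 32851 windows of this length in the table), CAAGGNCA (the type of site bound by LRH-1, 5.53%), TGANTCA (AP-1, 6.75%), GAAANNGAA (the core of the interferon response element, 7.13%) and GAGGAAGT (PU.1, 2.44%). An AGGTCA can lie inside a CAAGGNCA match. The window of Cyp8b1 held 1 match, CAAGGGCA, which began 60 bases before the start (position -60). The windows of Cyp27a1, Hsd3b7, Ch25h, Gpr183 and Gpbar1 held none of the 5 strings of letters.

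Cyp27a1, the mitochondrial cytochrome P450 that hydroxylates the sterol side chain, was the most abundant of the 7 genes in each tissue. In liver its TPM was 162.3, 161.6, 144.4 and 135.7 (151.0 ± 13.1, SD, n = 4). In duodenum it was 84.1, 59.6, 92.2 and 97.6 TPM (83.4 ± 16.8, SD, n = 4). In pancreas it was 112.3, 101.5, 92.6 and 125.1 TPM (107.9 ± 14.0, SD, n = 4). The liver libraries all lay above those of the other tissues, while pancreas and duodenum libraries overlapped. Among the tested genes these means stood at percentiles 98.6, 97.3 and 98.1 of mean TPM. The log2 difference in normalised counts (CPM, scaled to library size) was 0.68 ± 0.17 (SE) for liver minus duodenum, 0.28 ± 0.16 for pancreas minus duodenum and 0.40 ± 0.16 for liver minus pancreas. Duodenum replicate 2 was the lowest library. Without it the differences to duodenum were 0.46 for liver and 0.07 for pancreas.

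Hsd3b7, the steroid dehydrogenase that follows the ring hydroxylation, had the same low point in duodenum. Its TPM was 55.8, 51.9, 58.9 and 55.5 in liver (55.6 ± 2.85, SD, n = 4). The duodenum libraries were at 23.1, 18.7, 25.6 and 17.0 TPM (21.1 ± 3.94, SD, n = 4). In pancreas it was 56.2, 43.8, 41.3 and 45.5 TPM (46.7 ± 6.54, SD, n = 4). No duodenum library reached the lowest library of liver or pancreas, and pancreas replicate 1 lay within the liver range. The log2 differences in CPM were 1.24 ± 0.15 (SE) for liver minus duodenum, 1.06 ± 0.15 for pancreas minus duodenum and 0.17 ± 0.14 for liver minus pancreas. The mouse annotation (GENCODE M21) places 9430064I24Rik, of unclear coding status, over Hsd3b7 on the opposite strand, and how the counting treated strand is not given in the sources used here. That gene's mean was 2.61 TPM in liver, 1.02 in duodenum and 2.05 in pancreas, far under Hsd3b7 in each tissue.

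Cyp8b1, the sterol hydroxylase that sets the share of cholic acid among bile acids, had the largest log2 difference between tissues of the 7 genes. Its TPM was 26.8, 26.2, 32.5 and 27.2 in liver (28.2 ± 2.92, SD, n = 4). In pancreas it was 17.9, 21.3, 18.8 and 16.8 TPM (18.7 ± 1.90, SD, n = 4). The duodenum libraries gave 1.25, 0.793, 0.477 and 1.18 TPM (0.925 ± 0.360, SD, n = 4). The 3 tissues did not overlap, in the order liver, pancreas, duodenum. Duodenum held 220 to 597 estimated counts of Cyp8b1 per library, pancreas 7693 to 10099 and liver 11123 to 15625. The log2 differences in CPM were 4.77 ± 0.30 (SE) for liver minus duodenum, 4.26 ± 0.29 for pancreas minus duodenum and 0.50 ± 0.25 for liver minus pancreas. Leaving out any 1 library kept them within 4.55 to 4.95, 4.05 to 4.45 and 0.39 to 0.58. Cyp8b1 has a single exon and overlaps no other gene in GENCODE M21.

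**Figure D1:**
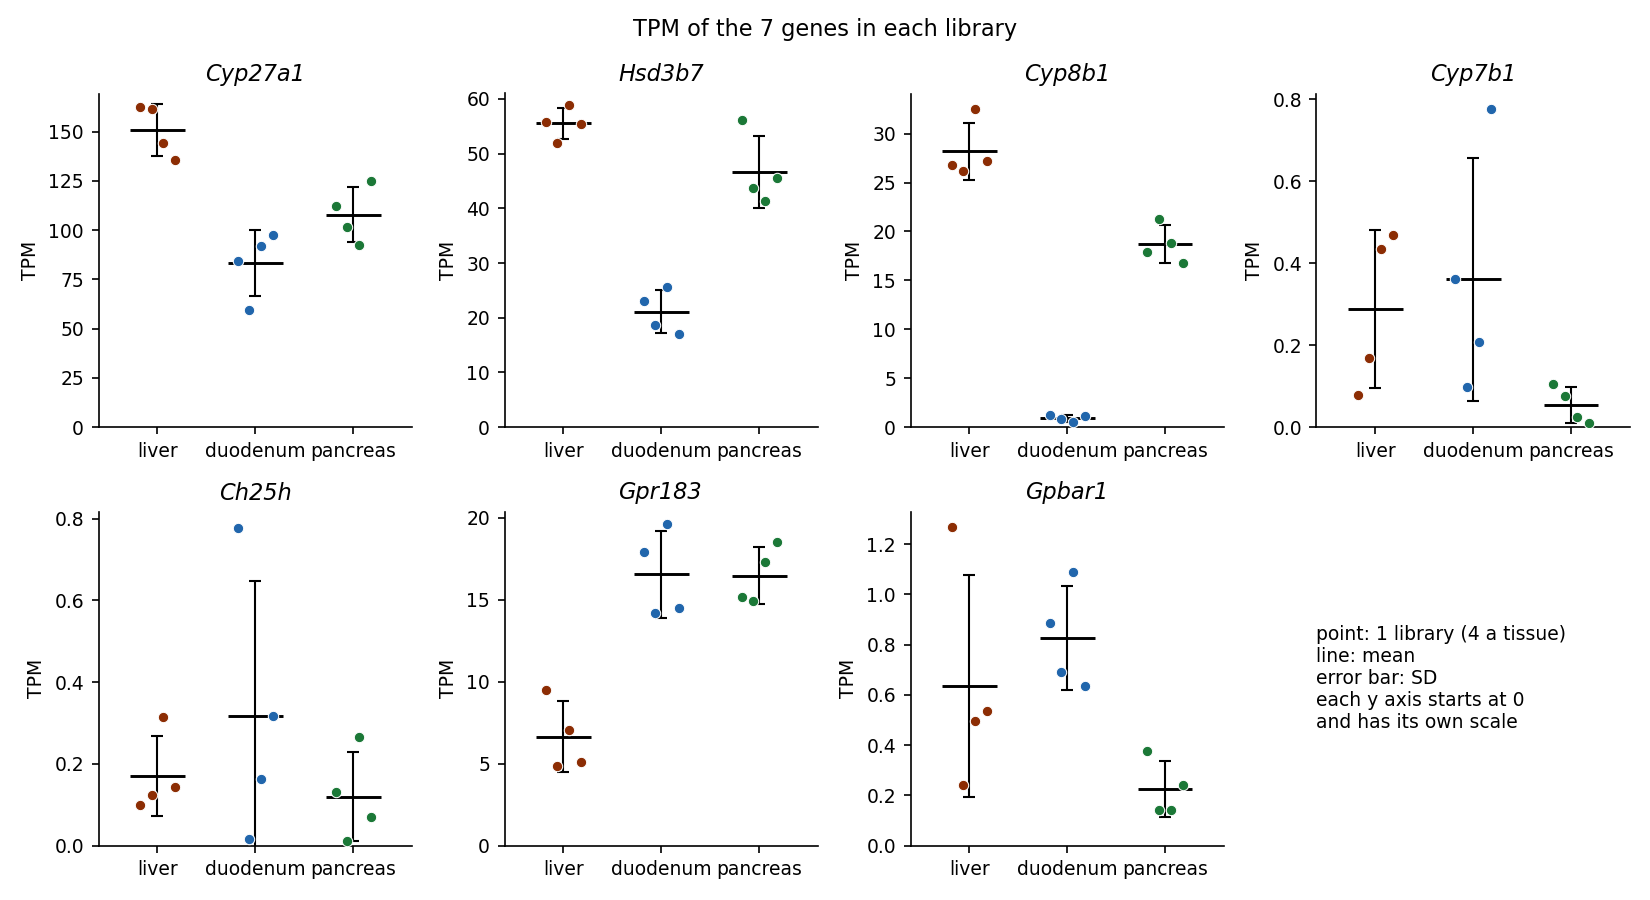
TPM of each of the 7 genes (vertical axes, linear, from 0, each with its own scale) in the 4 libraries of liver, duodenum and pancreas; points are libraries, lines means and error bars SD. Cyp27a1, Hsd3b7 and Cyp8b1 are lowest on average in duodenum, Gpr183 is lowest in liver, and Cyp7b1, Ch25h and Gpbar1 stay below 1.3 TPM in each library.

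Cyp8b1 is known as a hepatocyte enzyme, so its level was set beside the 19 hepatocyte markers. Alb, which encodes serum albumin, was at 6.43 to 10.8 TPM in liver, 0.0955 to 0.358 in duodenum and 0.0442 to 0.365 in pancreas. In the 4 pancreas libraries Cyp8b1 was at 16.8 to 21.3 TPM while Alb stayed below 0.4, and Apoa1 and Cyp7a1, both made by hepatocytes, were at most 0.254 and 0.200 TPM there. Apoa2, a further plasma apolipoprotein, reached 1.15 TPM in pancreas and 7.46 to 8.55 in liver. In the liver libraries Cyp8b1 exceeded Alb and Apoa1 in each library, while Trf, at 64.4 to 103.3 TPM, exceeded Cyp8b1. The summed hepatocyte list was 106.3 to 158.1 TPM in liver, 21.8 to 30.5 in duodenum and 175.0 to 215.9 in pancreas, carried mainly by Trf, which encodes transferrin, with means of 80.8, 19.0 and 178.3 TPM. Of the 19 markers, 7 in liver, 16 in duodenum and 16 in pancreas averaged below 1 TPM, and none was listed at 0 in a whole tissue. In their order of means, 12 of the 19 matched Cyp8b1, liver above pancreas above duodenum, Apoa2 among them. Alb, Apoa1, Cyp7a1 and Trf were among those that did not. The part of hepatocyte RNA in the liver level of Cyp8b1 was not tested.

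**Figure D2:**
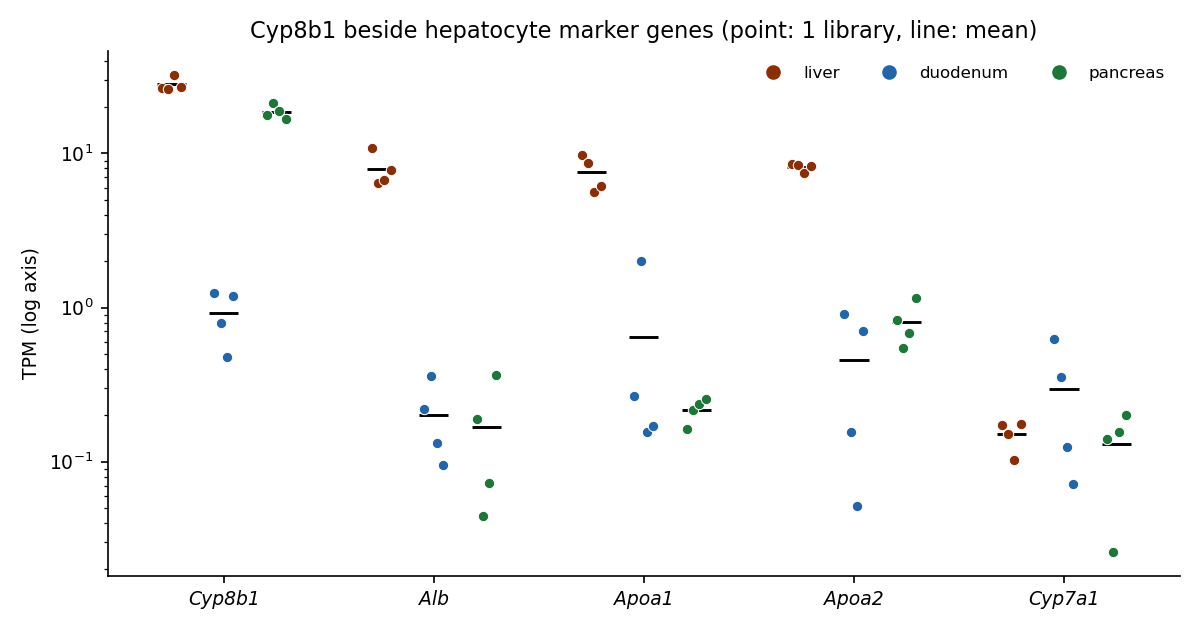
TPM (log axis) of Cyp8b1 and of the hepatocyte genes Alb, Apoa1, Apoa2 and Cyp7a1 in the 4 libraries of each tissue; points are libraries and lines means. Cyp8b1 lies at 16.8 to 21.3 TPM in pancreas, where Alb lies between 0.0442 and 0.365 TPM, and Cyp7a1 lies below 1 TPM in the 12 libraries. Trf, which exceeded Cyp8b1 in each liver and pancreas library, is not drawn.

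The proportions of the 3 enzymes in TPM differed between tissues through Cyp8b1 more than through the others. Cyp27a1 stood at 4.44 to 6.17 times Cyp8b1 in liver libraries and 4.77 to 7.45 times in pancreas libraries. In duodenum libraries this ratio was 67.3 to 193.1. Hsd3b7 stood at 1.81 to 2.08 times Cyp8b1 in liver, 2.06 to 3.14 times in pancreas and 14.4 to 53.6 times in duodenum. The ratio of Cyp27a1 to Hsd3b7 moved less, from 2.44 to 3.11 in liver, 2.00 to 2.75 in pancreas and 3.19 to 5.73 in duodenum. These ratios use the same libraries as the levels and are no further evidence of a tissue difference.

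Both enzymes that make the Gpr183 ligand were near the lower end of detection. Ch25h, the membrane-bound cholesterol hydroxylase that immune cells induce on activation, was at 0.0990, 0.125, 0.316 and 0.143 TPM in liver. In duodenum it was at 0.777, 0.0158, 0.163 and 0.317 TPM, and in pancreas at 0.131, 0.0123, 0.267 and 0.0707 TPM. The 3 tissues overlapped, with the highest library in duodenum, and the estimated counts ran from 4 to 217. The log2 difference in CPM was -1.05 ± 0.92 (SE) for liver minus duodenum, -1.45 ± 0.93 for pancreas minus duodenum and 0.41 ± 0.92 for liver minus pancreas. The last difference was -0.13 without liver replicate 3. Without duodenum replicate 1, the highest library, the difference of liver to duodenum was -0.12.

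Cyp7b1, the oxysterol hydroxylase that completes the ligand, was at 0.0796, 0.169, 0.434 and 0.469 TPM in liver. In duodenum it was at 0.362, 0.0981, 0.208 and 0.776 TPM. In pancreas it was at 0.105, 0.0751, 0.0239 and 0.00970 TPM, from 5 to 60 estimated counts. Pancreas had the lowest mean, 0.0535 ± 0.0445 TPM (SD, n = 4), against 0.361 ± 0.297 in duodenum and 0.288 ± 0.193 in liver, but its highest library overlapped both. The log2 differences in CPM were -0.51 ± 0.73 (SE) for liver minus duodenum, -2.89 ± 0.80 for pancreas minus duodenum and 2.39 ± 0.78 for liver minus pancreas. Without duodenum replicate 4, liver minus duodenum was 0.20. A small nuclear RNA gene, Gm23686, lies over Cyp7b1 on the same strand, with 0 to 0.926 TPM in the 12 libraries.

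Gpr183, the receptor for the oxysterol ligand, had a different order from the enzymes, with liver lowest. Its TPM was 9.52, 4.83, 7.08 and 5.12 in liver (6.64 ± 2.17, SD, n = 4). Duodenum libraries were at 17.9, 14.2, 19.6 and 14.5 TPM (16.6 ± 2.65, SD, n = 4). In pancreas it was 15.2, 14.9, 17.3 and 18.5 TPM (16.5 ± 1.75, SD, n = 4). The liver libraries all lay below the other 8, and duodenum and pancreas overlapped. The log2 differences in CPM were -1.48 ± 0.22 (SE) for liver minus duodenum, -1.40 ± 0.22 for liver minus pancreas and -0.08 ± 0.22 for pancreas minus duodenum. Without liver replicate 2 and pancreas replicates 3 and 4 the difference of liver to pancreas was -1.08.

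Gpr183 is also a gene of B cells and of type 2 DCs. The B and plasma cell sum averaged 5073 TPM in duodenum and 111.1 in pancreas, while Gpr183 averaged 16.6 and 16.5 TPM there. The sum of the 9 type 2 DC markers was lowest in liver, as Gpr183 was. Of the 9, 6 had their lowest mean in liver and 3 (Sirpa, Cd209a and Clec4a4) in pancreas. Irf4 was at 0.669 TPM in liver, 3.36 in duodenum and 0.870 in pancreas, Cd209a at 2.27, 11.9 and 0.345 TPM, and Clec4a2, the main part of the pancreas sum, at 1.54, 4.85 and 12.1 TPM. Of these markers, 7 in liver, 1 in duodenum and 6 in pancreas averaged below 1 TPM, and none was listed at 0 in a whole tissue. The part of these cells in the level of Gpr183 was not tested. Ubac2, which lies over Gpr183 on the opposite strand, averaged 34.3 TPM in liver, 43.3 in duodenum and 29.7 in pancreas. This overlap is of whole gene spans. Whether exons also overlap, so that reads could be mixed if strand was not used in counting, was not checked.

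Gpbar1 (also called TGR5), the cell surface receptor for bile acids, was below 1.3 TPM throughout. Its TPM was 1.27, 0.242, 0.495 and 0.537 in liver. In duodenum it was 0.888, 0.693, 1.09 and 0.634 TPM, and in pancreas 0.377, 0.141, 0.143 and 0.241 TPM. The pancreas libraries all lay below those of duodenum, and liver overlapped both. The log2 differences in CPM were -1.98 ± 0.46 (SE) for pancreas minus duodenum, -0.55 ± 0.44 for liver minus duodenum and 1.43 ± 0.46 for liver minus pancreas. Liver replicate 1 was the highest of the 12 libraries. Without it liver minus duodenum was -1.15 and liver minus pancreas 0.87.

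Macrophages also express Cyp27a1, and 6 of the 14 macrophage and Kupffer cell markers (Csf1r, Mertk, C1qa, C1qb, C1qc and Cd5l) had its order of means, liver above pancreas above duodenum, while 8 did not. Csf1r, the receptor for a macrophage growth factor, averaged 7.77 TPM in liver, 2.00 in duodenum and 4.42 in pancreas, and C1qa, a complement gene of macrophages, 2.94, 0.651 and 1.54 TPM. Adgre1, the F4/80 gene, averaged 0.934, 4.03 and 1.54 TPM in these tissues and Timd4 2.67, 0.605 and 10.1 TPM. The 14 markers together had another order, with 506.0 to 657.5 TPM in liver, 391.1 to 550.8 in duodenum and 882.0 to 1015 in pancreas, carried mainly by Lyz2 and Cd68. Of the 14, 7 in liver, 10 in duodenum and 6 in pancreas averaged below 1 TPM, and none was listed at 0 in a whole tissue. Their part in the level of Cyp27a1 or Gpbar1 was not tested.

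Between liver and duodenum, 3 of the 7 genes (Cyp27a1, Hsd3b7 and Cyp8b1) had the 4 liver libraries above the 4 of duodenum, 1 (Gpr183) below, and 3 overlapped. Over all tested genes those shares were 7.6% above and 5.9% below. Between pancreas and duodenum, 2 genes (Hsd3b7 and Cyp8b1) lay above and 1 (Gpbar1) below, beside 7.12% and 5.36% of all tested genes. Between liver and pancreas, 2 (Cyp27a1 and Cyp8b1) lay above and 1 (Gpr183) below, beside 3.11% and 3.47%. Since the genes were chosen with values known, nothing is read from these counts. The median log2 difference of the 7 genes was -0.51, -0.08 and 0.41 in these comparisons, against 0.10, 0.09 and 0.01 over all tested genes. The comparisons share tissues, so the counts are not independent of each other. TPM and CPM gave the same overlaps for the 7 genes in each comparison. In the 12632 genes above 1 TPM in every library, counts equalled TPM times a gene factor and a library factor. The shared overlaps are thus no separate check. Without duodenum replicate 2 and pancreas replicate 1, and without liver replicate 2 and pancreas replicates 3 and 4, each of the 7 genes kept the sign of its difference in each comparison. The values that moved by more than 1.5 times were pancreas minus duodenum of Cyp27a1 (0.09 and 0.17), of Ch25h without the second set (-2.40) and of Gpr183 (-0.16 and -0.32), liver minus pancreas of Ch25h without the second set (1.43), and liver minus duodenum of Cyp7b1 without the first set (-0.89) and of Gpbar1 without the second (-0.33).

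**Figure D3:**
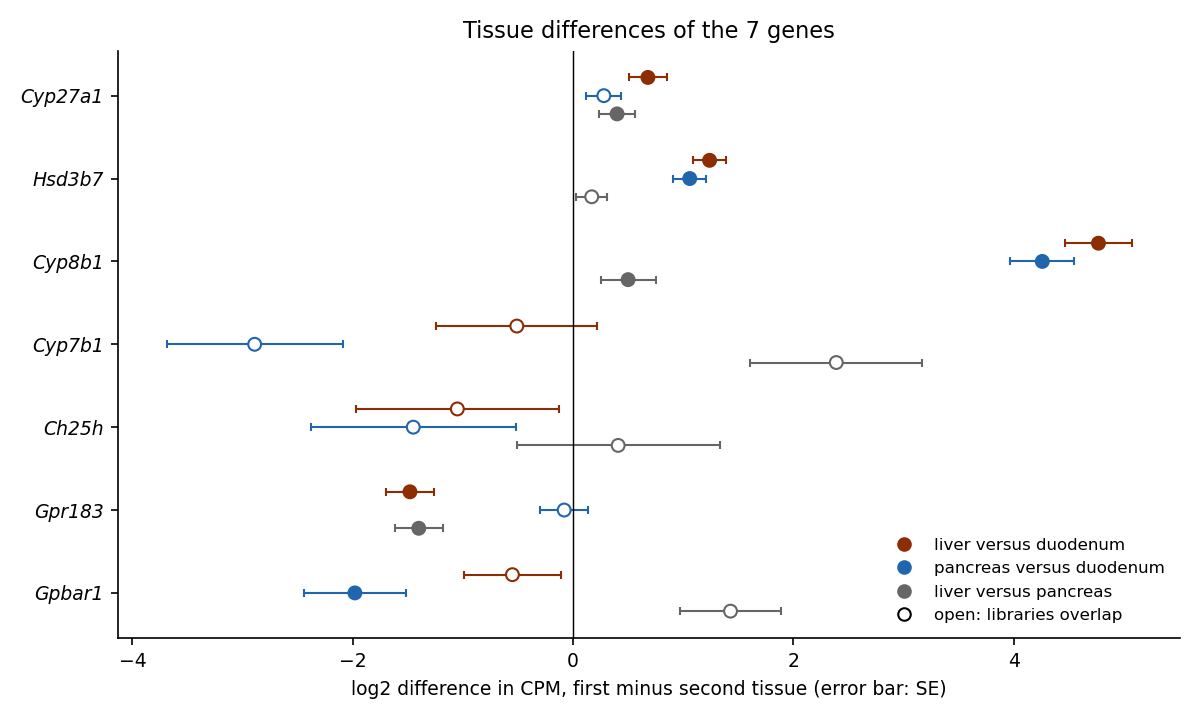
Log2 difference in CPM (horizontal axis, first minus second tissue) of the 7 genes in the 3 comparisons; points are estimates, bars SE, and open points mark genes whose libraries overlap. Cyp8b1 stands at 4.77 and 4.26 against duodenum, Gpr183 at -1.48 and -1.40 for liver against duodenum and pancreas, and Cyp7b1 and Ch25h have SE of 0.73 to 0.93.

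For the genes that averaged at least 1 TPM, the genes with the most similar pattern were sought among 8306 genes, by Pearson's r of log2 CPM over the 12 libraries. Genes of the marker lists, predicted genes and antigen receptor segments were left out of the 8306, so none of them could be named as nearest. The libraries fall into 3 tissues, so r mainly compares tissue levels and is given as a description. Nearest to Cyp8b1 were Csf2rb2, Gcsam and Pkp3 (r of 0.986, 0.985 and 0.984). Gcsam averaged 110.3 TPM in liver, 8.60 in duodenum and 105.4 in pancreas. Nearest to Hsd3b7 were Il18, a cytokine gene, with r of 0.987 and means of 49.8, 4.83 and 34.9 TPM, then Gramd3 (0.977) and Clnk (0.976). Nearest to Cyp27a1 were Irf7, an interferon response factor (r of 0.945), Fgd2 (0.943) and Arhgap15 (0.943). Nearest to Gpr183 were Nfkbia, the inhibitor of NF-kB (r of 0.942), Tagln2 (0.939) and Ilf2 (0.939).

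Around these genes, 74 others of the pathway were grouped into 5 lists, of which 73 matched a gene in the tables and were tested. Calls are at an adjusted p under 0.05 from edgeR's quasi-likelihood test, with Benjamini-Hochberg adjustment over the 44624 genes. The lists were drawn up with earlier results of these data known. Of the 73, 39 averaged at least 1 TPM in some tissue. In liver against duodenum 5 were higher and 4 lower, where 3.37% and 3.95% of all tested genes were called. In pancreas against duodenum 2 were higher and 7 lower, beside 3.76% and 3.94%. In liver against pancreas 1 was higher and none lower, beside 0.426% and 0.681%, and at an unadjusted p under 0.05 there were 9 higher and 3 lower. Between liver and pancreas DESeq2 called 5 of the 73 higher and 0 lower, and limma called 1 higher on log2(TPM + 1) and 3 higher on log2(TPM + 0.1). The median log2 difference of the 73 was 0.19, 0.20 and 0.05, against 0.10, 0.09 and 0.01 over all tested genes. The shares of all tested genes called depend on the genes included. With a filter at 10 CPM in 4 libraries, 1629 of 9048 genes were called higher and 1750 lower in liver than in duodenum. For pancreas against duodenum these were 1732 and 1718.

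Soat1, which esterifies cholesterol and oxysterols for storage, was highest in duodenum. Its TPM was 73.1, 87.8, 79.6 and 72.8 in duodenum, 37.0, 45.4, 39.8 and 35.2 in liver and 26.0, 21.1, 27.3 and 16.9 in pancreas, with no overlap. The log2 difference was -1.15 ± 0.16 (SE, edgeR adjusted p = 0.000351) for liver minus duodenum and -1.84 ± 0.16 (edgeR adjusted p = 4.44e-06) for pancreas minus duodenum. It was the 1 gene called between liver and pancreas, at 0.69 ± 0.16 (edgeR adjusted p = 0.0486). That call ended when any 1 of 10 libraries was left out (edgeR adjusted p = 0.0607 to 0.151), the exceptions being duodenum replicate 2 and pancreas replicate 3. Among the 14 tested genes of oxysterol modification and sterol esters, 2 were lower and none higher in liver than in duodenum, with edgeR's unadjusted p under 0.05 for 1 higher and 4 lower. DESeq2 called 0 of them higher and 3 lower, and limma 0 higher and 2 lower on both TPM scales.

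In pancreas against duodenum, 3 genes of that list were lower. Among them was Stard5, at 27.3, 19.9, 23.1 and 23.8 TPM in duodenum and 12.9, 10.9, 14.2 and 12.3 in pancreas, with no overlap. Stard5, which binds cholesterol and bile acids, averaged 12.6 ± 1.35 TPM in pancreas against 23.5 ± 3.03 in duodenum (SD, n = 4). Its log2 difference between them was -0.97 ± 0.18 (SE, edgeR adjusted p = 0.00382). Lipa, the lysosomal lipase, averaged 47.8 to 51.3 TPM over the tissues and Ebp, a sterol isomerase, 21.2 to 26.2 TPM. Neither was called.

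Among the 17 sterol-binding proteins and sterol sensors, Insig1, the endoplasmic reticulum protein that holds back sterol synthesis when sterols are high, was lower in both comparisons with duodenum. Its TPM was 51.5, 45.8, 44.5 and 36.6 in duodenum, 21.9, 25.3, 19.8 and 19.1 in liver and 13.7, 24.1, 11.3 and 12.5 in pancreas. The log2 difference was -1.21 ± 0.21 (SE, edgeR adjusted p = 0.0024) for liver minus duodenum and -1.60 ± 0.21 (edgeR adjusted p = 0.00024) for pancreas minus duodenum. Its relative Insig2 averaged 28.8 TPM in liver, 24.8 in duodenum and 23.8 in pancreas and was not called. Npc2, the lysosomal cholesterol carrier, was higher in liver than in duodenum, at 207.3 ± 7.94 against 125.8 ± 4.68 TPM (SD, n = 4 each), with a log2 difference of 0.56 ± 0.13 (SE, edgeR adjusted p = 0.0174). That call ended without any 1 liver library or duodenum replicate 4 (edgeR adjusted p = 0.0516 to 0.0676), and with DESeq2 size factors. Osbpl7, an oxysterol-binding protein relative, was at 7.65 against 3.67 TPM, with a log2 difference of 0.92 ± 0.25 (SE, edgeR adjusted p = 0.0359) and overlapping libraries, and its call ended without any 1 of 9 libraries (edgeR adjusted p = 0.0538 to 0.136), all but liver replicate 2, duodenum replicate 2 and pancreas replicate 2. The call of Osbpl7 also ended with DESeq2 size factors, with the 8 libraries compared alone and with the replicate block. Osbpl9, at 55.3 to 72.6 TPM, was not called. None of the 17 was called between liver and pancreas, with 1 at an unadjusted p under 0.05 in edgeR and 0 called by DESeq2 or by limma on both TPM scales. In pancreas against duodenum edgeR called none higher, with 3 higher at an unadjusted p under 0.05, DESeq2 called 0 higher, and limma called 1 higher, Npc2, on both TPM scales.

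In bile acid synthesis and conjugation, 15 genes were tested and 6 averaged at least 1 TPM. Cyp7a1, the rate-limiting enzyme of the ring-first route, averaged 0.151 TPM in liver, 0.296 in duodenum and 0.130 in pancreas. Hsd17b4, a peroxisomal enzyme that shortens the side chain, was at 20.1, 29.2, 24.9 and 24.7 TPM in pancreas and 40.4, 35.4, 47.9 and 46.4 in duodenum, a log2 difference of -0.85 ± 0.17 (SE, edgeR adjusted p = 0.00533). Acot8, a peroxisomal thioesterase, was lower in liver (14.9 TPM) and in pancreas (13.9) than in duodenum (19.7), with log2 differences of -0.57 ± 0.16 and -0.56 ± 0.16 (SE, edgeR adjusted p = 0.0463 and 0.046). The call in liver ended without any 1 of liver replicates 2 and 3, duodenum replicates 1, 3 and 4 and pancreas replicate 2 (edgeR adjusted p = 0.0633 to 0.106). The call in pancreas ended without any 1 of duodenum replicates 1, 3 and 4 and pancreas replicates 1, 2 and 4 (edgeR adjusted p = 0.0815 to 0.121). Both calls also ended with library totals, with the 8 libraries compared alone and with the replicate block. The call in liver ended with limma on both TPM scales as well. Cyp2c70, which makes muricholic acids, was higher in liver than in duodenum at 0.528 against 0.0892 TPM (log2 difference 2.44 ± 0.56, SE, edgeR adjusted p = 0.0144); it is named after its values were seen, and its call ended without liver replicate 2 or duodenum replicate 4 (edgeR adjusted p = 0.0511 to 0.0589). Scp2, a sterol carrier, averaged 165.8 to 193.6 TPM and Abcd3, a peroxisomal transporter, 3.20 to 5.38 TPM, and neither was called. Between liver and pancreas none of the 15 was called, with 4 at an unadjusted p under 0.05 in edgeR and 2 called by DESeq2, and limma called 0 on log2(TPM + 1) and 1, Hsd17b4, on log2(TPM + 0.1).

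Among 14 nuclear and other receptors for oxysterols and bile acids, 5 averaged at least 1 TPM. Nr1h2, the LXR-beta gene, whose product senses oxysterols, averaged 37.8 TPM in liver, 34.2 in duodenum and 37.2 in pancreas, while Nr1h3, the LXR-alpha gene, averaged 0.667, 0.463 and 0.614 TPM and Nr1h4, the bile acid receptor FXR, 0.0925, 0.0794 and 0.112 TPM. None of these 3 was called. Rxra, the partner of LXR and FXR, averaged 2.72 TPM in liver and 2.52 in pancreas against 1.51 in duodenum (log2 differences 0.69 ± 0.19 and 0.66 ± 0.19, SE, edgeR adjusted p = 0.0395 and 0.0475). Its call in liver ended without any 1 library but duodenum replicate 3 (edgeR adjusted p = 0.0565 to 0.174), and its call in pancreas without any 1 of the 12 (edgeR adjusted p = 0.0503 to 0.158). Both calls of Rxra also ended with DESeq2 size factors, with no filter on low counts and with the 8 libraries compared alone. They ended without duodenum replicate 2 and pancreas replicate 1 together as well. DESeq2 did not call Rxra in pancreas against duodenum. Esr1, the oestrogen receptor that also binds an oxysterol, averaged 1.15 and 1.20 TPM in liver and pancreas against 0.499 in duodenum (log2 differences 1.06 ± 0.27 and 1.18 ± 0.27, SE, edgeR adjusted p = 0.027 and 0.0138). These calls ended without any 1 of liver replicates 1, 3 and 4 and duodenum replicates 3 and 4 for liver (edgeR adjusted p = 0.0556 to 0.0984), and of duodenum replicate 4 and pancreas replicates 1 and 4 for pancreas (edgeR adjusted p = 0.0502 to 0.0574). Rxrb, at 12.1 to 18.8 TPM, was not called. Between liver and pancreas none of the 14 was called, with 1 at an unadjusted p under 0.05 in edgeR and 0 called by DESeq2 or by limma on both TPM scales.

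Of 13 bile acid transporters and binding proteins, 3 averaged at least 1 TPM. Slc10a1 (NTCP), the sodium-driven bile acid importer of hepatocytes, averaged 1.56 TPM in liver and 1.68 in duodenum, and was lower in pancreas than in duodenum at 0.983, 0.631, 0.798 and 0.607 TPM (log2 difference -1.24 ± 0.24, SE, edgeR adjusted p = 0.00471). The exporters Abcc4 and Abcb4 averaged 2.16 to 3.20 and 0.768 to 1.11 TPM and were not called. In liver against duodenum none of the 13 was called, with 0 at an unadjusted p under 0.05 in edgeR and 0 called by DESeq2 or by limma on both TPM scales. Between liver and pancreas none was called, with 2 at an unadjusted p under 0.05 in edgeR. DESeq2 called 1, Slc10a1, and limma 0 on log2(TPM + 1) and 1, again Slc10a1, on log2(TPM + 0.1). The calls of Hsd17b4 and Slc10a1 in pancreas ended without liver replicate 2 and pancreas replicates 3 and 4 together (edgeR adjusted p = 0.0592 and 0.058). That setting also ended the calls of Acot8, Rxra and Esr1 in both tissues against duodenum, of Cyp2c70 in liver, and of Soat1 between liver and pancreas. It leaves fewer libraries of liver and pancreas, and the cause of these losses was not tested. The calls of Soat1 and Insig1 in both tissues against duodenum, and of Stard5 in pancreas, held under the 24 alternative settings run.

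**Figure D4:**
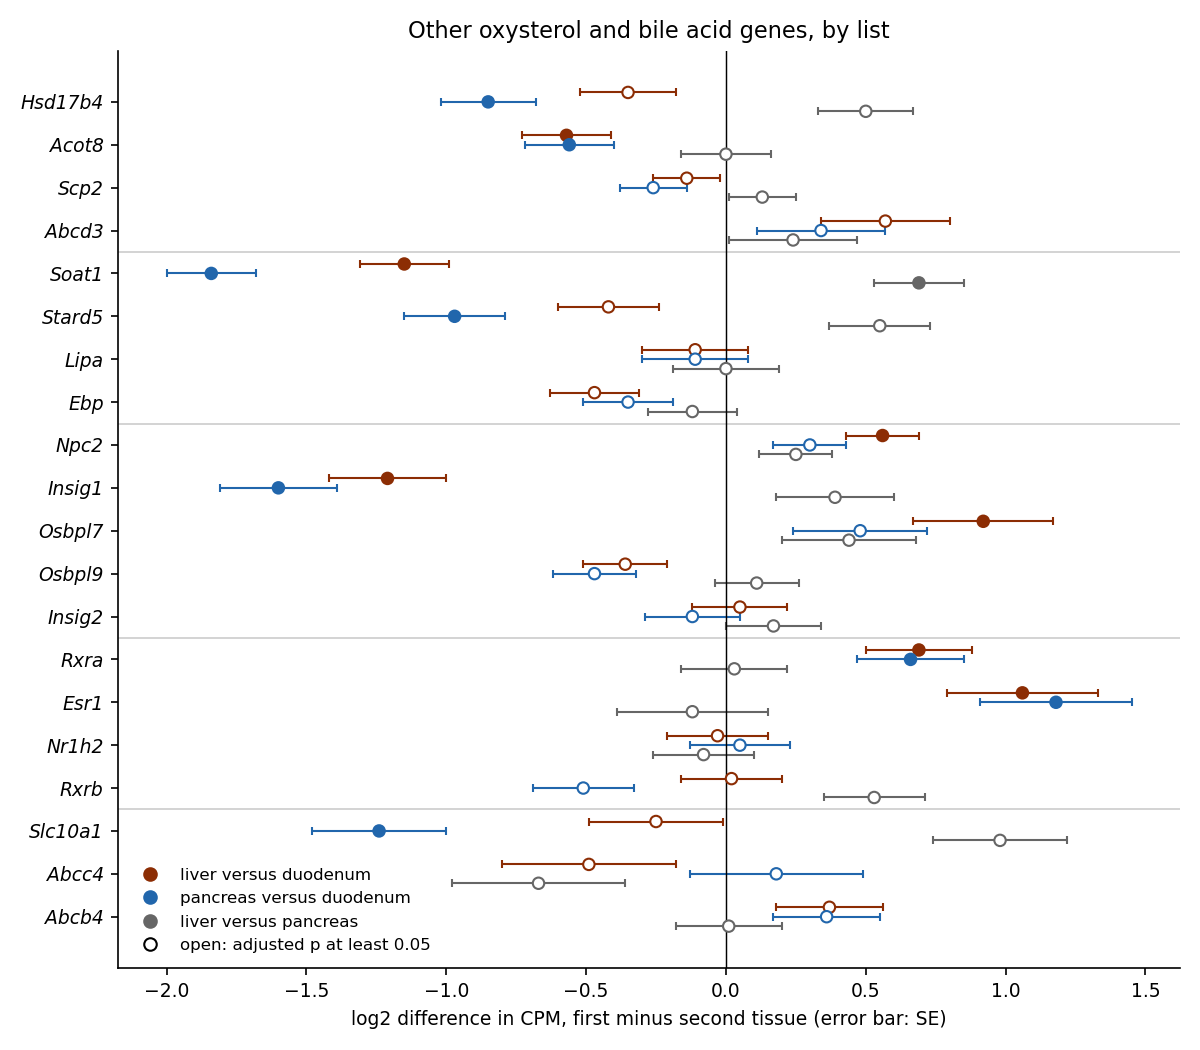
Log2 difference in CPM (horizontal axis, first minus second tissue) of named pathway genes other than the 7, in their 5 lists; points are estimates, bars SE, and filled points are called at adjusted p under 0.05 by edgeR. Soat1 and Insig1 lie at -1.15 to -1.84 against duodenum.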

How the data were processed

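Bulk polyA RNA of the sorted DCs was sequenced, with 4 libraries per tissue. The submitters' processing notes name kallisto, without a version, and the build GRCm39. The authors deposited a table of estimated counts and a table of TPM. Over the 12632 genes above 1 TPM in every library, log2 of count over TPM was a gene term plus a library term, within 1.1e-09. The counts of these genes thus equal TPM times a gene factor and a library factor, and need not be numbers of reads. How strand was treated and how transcripts were summed to genes is not given in the sources used here. Other data that the design text mentions were not used here.

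Estimated counts, as deposited, were rounded and fitted in R 4.3.3 with edgeR 4.0.16 (TMM scaling, filterByExpr with a minimum count of 10, a robust quasi-likelihood fit of tissue to the 12 libraries). Adjusted p-values are Benjamini-Hochberg values of the quasi-likelihood F test over 44624 genes, with a threshold of 0.05. The SE of a difference was taken from its size and the F statistic (size divided by the root of F), and levels are the deposited TPM. The 24 alternatives included DESeq2 1.42.0 and limma 3.58.1, the last on log2 of TPM plus 1 or 0.1. The fit was tested on simulated counts with known changes.

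The 7 genes, the 5 pathway lists and the 11 marker lists were chosen with earlier results of these data known. Named besides the 7 genes were, per list, up to 8 called genes with a mean of at least 1 TPM in their highest tissue, up to 2 uncalled genes of highest TPM, and, for each of the 7 that averaged at least 1 TPM, the 3 genes of most similar pattern with at least 10 CPM on average in their highest tissue. Of the named genes, 1 is not reported here, though the counts include it. Promoter windows are RefSeq's (GRCm38.p6), and overlapping genes come from GENCODE M21. The deposited tables hold no coordinates. The labels number the libraries of a tissue as biological replicates, each a pool of 2 mice, and intervals cover the spread between pools. Whether the same mice gave more than 1 tissue was not established.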

Additional observations from a re-analysis of the deposited data

Results flagged for a closer look

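Within each tissue, the 4 libraries of the 7 genes and of the named pathway genes were checked for 1 library far from the other 3, over 84 groups of 4. A library was marked by the size of its gap to the nearest other relative to the group's range (Dixon's criterion), which chance exceeds in about 1 group in 20, and 3 groups were marked. Cyp8b1 in liver replicate 3 was at 32.5 TPM, against 26.2 to 27.2 TPM in the other liver libraries. Without that library the difference of liver to pancreas in Cyp8b1 was 0.39 on the log2 scale, in place of 0.50. Acot8 in pancreas replicate 3 was at 15.9 TPM, against 13.0 to 13.5. Abcc4 in liver replicate 1 was at 3.20 TPM, against 1.79 to 1.83.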

How the results depend on the processing

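Ch25h and Cyp7b1 rest on 4 to 441 estimated counts a library and Gpbar1 on 34 to 323. Taken as numbers of reads, these give the largest counting error of the 7 genes. Libraries of a tissue also differed widely, as for Ch25h in duodenum (7 to 217). Of the differences of the 7 genes under the 24 alternatives, 483 moved by less than the spread between libraries, 7 by more and 5 turned sign. Those 5 were Gpr183 for pancreas minus duodenum (0.01 with library totals, 0.02 with a filter at 10 CPM, and -0.24 to 0.02 with 1 library left out), Cyp7b1 for liver minus duodenum (-0.89 to 0.20 with 1 library left out, reached without duodenum replicate 4) and Ch25h for liver minus pancreas (-0.13 to 1.27, without liver replicate 3); the cause was not tested. On log2(TPM + 1), which understates low genes, Cyp8b1 was at 3.94 for liver minus duodenum and Cyp7b1 at -0.35 for pancreas minus duodenum.

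The 9 pathway calls in liver against duodenum became 4 to 13 with 1 library left out (5 without liver replicate 1 or 4, 4 without liver replicate 3 or duodenum replicate 4). The 9 in pancreas against duodenum ranged from 6 to 11 with 1 library left out and from 5 to 13 under the other alternatives. They were 5 without liver replicate 2 and pancreas replicates 3 and 4 together. The 1 call between liver and pancreas, Soat1, became 0 with DESeq2 size factors, with the 8 libraries compared alone and without the robust fit. It also became 0 without those 3 libraries and without duodenum replicate 2 and pancreas replicate 1, and 0 to 1 with 1 library left out. The count was 4 with library totals, 5 with DESeq2, 3 with limma on log2(TPM + 0.1) and 4 with the filter at 10 CPM, where 26 of the 73 genes were tested. With the replicate block the counts were 8, 8 and 1; same-numbered libraries correlated at -0.0515 to 0.104 over 12 pairs, in 4 of these 12 pairs the same number gave the highest correlation, and the numbers were not taken to pair the samples.

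Over all genes, 3265 calls in liver against duodenum became 2069 without the 3 immunoglobulin libraries, 5050 with DESeq2 and 4913 without duodenum replicate 2 and pancreas replicate 1. The 3437 in pancreas against duodenum became 1712 without the 3 immunoglobulin libraries, and the 494 between liver and pancreas ranged from 177 to 1153. Genes higher in liver made up 46.0% of calls against duodenum, 35.3% with DESeq2 size factors and 63.5% with library totals, which moved the median of all genes from 0.10 to 0.25. Against pancreas that share was 38.5%, and 52.2% with library totals.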
